A study of Mus musculus with 11 samples.

Results

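The cytochrome P450 family 4 (Cyp4) enzymes were followed in livers of leptin receptor-deficient db/db mice, which are obese and diabetic, after treatment with an antibody against the glucagon receptor. The members were the 10 genes Cyp4a10, Cyp4a14, Cyp4a12a, Cyp4a31, Cyp4a32, Cyp4b1, Cyp4f13, Cyp4f14, Cyp4f15 and Cyp4v3, out of 20144 genes named on the array, and were found by matching the transcript accession of each probe to its gene. They had 14 probes, 3 each for Cyp4a10 and Cyp4a31 and 1 for each other member. Every probe was well above background in the liver dye, Cy5, on all 11 arrays. Another 10 Cyp4 genes were on the array, of which 8 could be tested, and 2 Cyp4 pseudogenes.

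The treated group (anti-GCGR, 6 samples) had received 5 mg/kg of the monoclonal antibody 3c7.v44, and the control group (PBS, 5 samples) phosphate-buffered saline. All mice were db/db, and the labels give neither their sex and age nor the length of treatment. Each array held liver cRNA in Cy5 and a commercial pooled mouse reference RNA in Cy3, with no dye swap, which makes each value a log2 ratio of liver to reference RNA, and the reference is no control group. Whether the samples of a group are separate mice is not stated in the labels, and the p-values reflect only how these samples vary.

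Enzymes of this family hydroxylate fatty acids at or next to the last carbon of the chain. The hydroxy acids are oxidized further to dicarboxylic acids, which peroxisomes shorten. In mouse liver, Cyp4a10 and Cyp4a14 are classic targets of the fatty acid receptor PPAR-alpha, and the Cyp4f enzymes inactivate leukotrienes and other lipid signals. Glucagon is the fasting hormone that turns the liver towards fat oxidation, and the comparison asks what blocking its receptor does to liver transcripts.

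The members lie in 2 gene clusters and at 1 single site in the mouse genome (RefSeq annotation of GRCm38.p6). Cyp4a12a, Cyp4a14, Cyp4a10, Cyp4a31, Cyp4a32 and Cyp4b1 lie in this order on chromosome 4 between 115299046 and 115647721. Cyp4a12b and Cyp4a30b, which are not members, lie between Cyp4a12a and Cyp4a14. Cyp4f15, Cyp4f14 and Cyp4f13 lie on chromosome 17 between 32685631 and 32947415, and Cyp4v3 on chromosome 8 between 45305801 and 45333163. The Cyp4a genes are close copies of each other. The probe sequences were not used here, so signal shared between Cyp4a10, Cyp4a31 and Cyp4a32, or between Cyp4a12a and Cyp4a12b, cannot be told apart from signal of each gene.

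The promoters of the 3 Cyp4f members are shown because of the Cy5 signals of Cyp4f14 and Cyp4f15. These were lower on most antibody arrays, as described with their values. The Cy3 signals of both genes were lower there too, and no difference in their Cy5 over Cy3 ratios passed the test. Their neighbour Cyp4f13 had a smaller Cy5 difference. Each is the 250 bases before the start in the RefSeq table (GRCm38.p6), 5′ to 3′ on the strand of the gene, with the CCAAT motif, searched on both strands and here present as its reverse complement, in capitals. They are Cyp4f14 at chr17:32917357-32917606 on the minus strand, Cyp4f15 at chr17:32685409-32685658 on the plus strand and Cyp4f13 at chr17:32947362-32947611 on the minus strand. The table gives 4 starts for Cyp4f14, and the most upstream was used. The gene spans given above reach further than these starts, so 20, 28 and 54 of the printed bases of Cyp4f14, Cyp4f15 and Cyp4f13 lie inside the annotated gene.
Cyp4f14: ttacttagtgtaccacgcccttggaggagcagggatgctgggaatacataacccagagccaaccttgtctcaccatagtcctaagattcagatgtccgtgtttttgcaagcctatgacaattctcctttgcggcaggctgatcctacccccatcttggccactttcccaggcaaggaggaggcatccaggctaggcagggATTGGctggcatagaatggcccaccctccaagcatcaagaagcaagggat
Cyp4f15: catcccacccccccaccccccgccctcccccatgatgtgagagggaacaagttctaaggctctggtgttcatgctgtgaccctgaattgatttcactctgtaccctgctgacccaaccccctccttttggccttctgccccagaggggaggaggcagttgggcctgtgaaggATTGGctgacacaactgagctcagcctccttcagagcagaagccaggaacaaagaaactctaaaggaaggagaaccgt
Cyp4f13: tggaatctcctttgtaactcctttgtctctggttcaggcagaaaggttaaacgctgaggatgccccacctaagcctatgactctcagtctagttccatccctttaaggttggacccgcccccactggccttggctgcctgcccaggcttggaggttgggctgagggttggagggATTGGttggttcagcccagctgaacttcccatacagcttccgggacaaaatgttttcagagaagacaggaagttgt

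The motif stood 50, 78 and 76 bases before the start of Cyp4f14, Cyp4f15 and Cyp4f13. Cyp4a32 held it too, 80 bases before its start, while Cyp4b1 and Cyp4v3 did not. The CCAAT motif occurred in 33.8% of 32851 promoters of that length. Of the 10 members, 6 were in the table, and none of the 6 held the nuclear receptor half-site AGGTCA, which 14% of promoters held, or the PPAR-type direct repeat of AGGTCA with a single base between the copies, which 0.0335% held. The STAT-type motif TTCNNNGAA, which 7.02% of promoters held, was present in Cyp4b1 and Cyp4f13 and in none of the other 4. Cyp4a10, Cyp4a14, Cyp4a12a and Cyp4a31 are named only.

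No difference between anti-GCGR and PBS livers passed the test for any of the 10 members in the Cy5 over Cy3 ratio. At an adjusted p under 0.05 (limma, Benjamini-Hochberg over 15974 genes, two-sided), 0 members were higher and 0 lower, where 14.6% of all genes were called. At an unadjusted p under 0.05 the count was also 0, where 30.5% of all genes passed. The members' median log2 fold change was 0.03, and that of all genes was 0.01. Of the members, 4 of 10 had a log2 fold change below 0, as did 46.3% of all genes. The 95% intervals of the 10 fold changes lay between 0.743-fold and 1.88-fold. With slide as a block no member was called either, and the smallest limma adjusted p was 0.113, for Cyp4a12a. In no member were the groups' values apart without overlap, which happened in 6.64% of all genes.

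**Figure D1:**
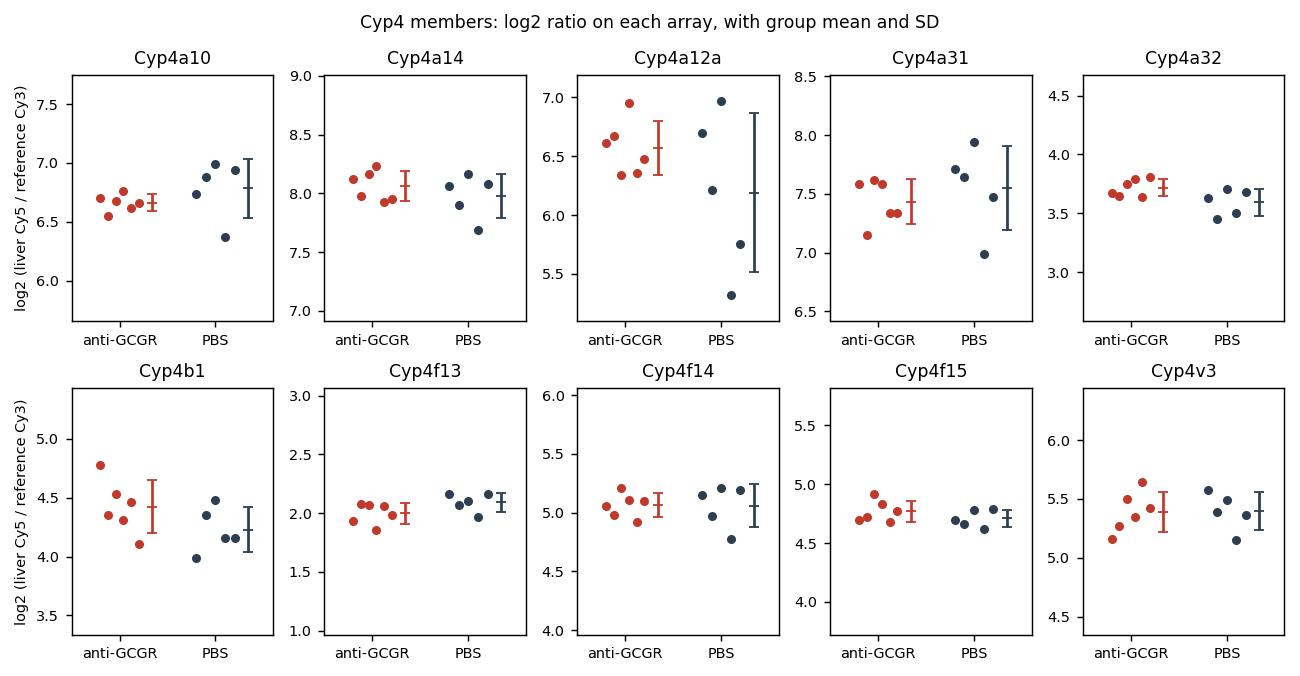
The vertical axes give log2 of liver Cy5 over reference Cy3 for each of the 10 Cyp4 members, all spanning the same range. Each point is 1 array, with 6 anti-GCGR arrays left of 5 PBS arrays, and the bars are the group mean and SD. The groups overlap in each panel, and the widest spread is that of Cyp4a12a in PBS, where the lowest array is at 5.32 and the highest at 6.97.

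Cyp4a10, a fatty acid hydroxylase and marker of PPAR-alpha activity, lay between 6.55 and 6.76 in anti-GCGR livers (median 6.67). In PBS livers it was 6.74, 6.88, 6.99, 6.37 and 6.94 on replicates 1, 3, 4, 5 and 6. The antibody arrays fell within the PBS range, close together, with PBS replicate 5 below all of them. That replicate was the lowest PBS array in 8 of the 10 members. The means were 6.66 ± 0.07 (SD, n = 6) and 6.78 ± 0.25 (SD, n = 5), a log2 difference of -0.12 ± 0.10 (SE, limma adjusted p = 0.441). Without PBS replicate 5 it was -0.23 (limma adjusted p = 0.0363), where 5.39% of all genes were lower at that threshold. The 2 other probes of Cyp4a10 gave -0.11 and 0.02.

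Cyp4a14, the other inducible hydroxylase of the pair, lay between 7.93 and 8.23 in anti-GCGR livers (median 8.05). In PBS livers its log2 ratio was 8.06, 7.90, 8.16, 7.69 and 8.08 on replicates 1, 3, 4, 5 and 6. The ranges overlapped on nearly every array, and 1 antibody array stood above all PBS arrays. The difference in log2 ratio was 0.08 ± 0.09 (SE, limma adjusted p = 0.574), with an interval of 0.929-fold to 1.21-fold.

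Cyp4a12a, which in mice is male-predominant and hydroxylates arachidonic acid, had the largest difference among the members in the loess-normalized ratio. It lay between 6.34 and 6.95 in anti-GCGR livers (median 6.54) and at 6.70, 6.21, 6.97, 5.32 and 5.75 in PBS livers on replicates 1, 3, 4, 5 and 6. The antibody values sat in the upper part of a wide PBS range, and PBS replicates 3, 5 and 6 were below all of them. The difference in log2 ratio was 0.38 ± 0.25 (SE, limma adjusted p = 0.332), and leaving out single arrays moved it between 0.16 and 0.57. By slide the difference was -0.05 on slide 1, 1.19 on slide 2 and 0.43 on slide 3. The only PBS array on slide 2 was replicate 5, the lowest PBS array. Its close copy Cyp4a12b, not a member, had a log2 fold change of 0.27 (95% interval 1.01-fold to 1.45-fold).

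Cyp4a31 had a log2 difference of -0.12 ± 0.15 (SE, limma adjusted p = 0.648) on its brightest probe and -0.20 and 0.15 on its other probes, which thus disagreed in sign. Leaving out single arrays moved the value of the brightest probe between -0.26, without PBS replicate 5, and -0.02. Over the 11 arrays, Pearson r of deviations from the group means ran from 0.455 to 0.964 between probes of Cyp4a31 and Cyp4a10, and from 0.512 to 0.982 among the probes of Cyp4a31. These correlations share arrays and are a description. Cyp4a32 lay between 3.64 and 3.81 in anti-GCGR livers and between 3.45 and 3.71 in PBS livers, and 3 of 6 antibody arrays were above all PBS arrays. Its difference in log2 ratio was 0.12 ± 0.06 (SE, limma adjusted p = 0.192). The direction turned in Cy5 alone, quantile scaled between arrays, at -0.29, and with median centring, at -0.03. In the unlogged Cy5 signal, before scaling, 2 of 6 antibody arrays were below all PBS arrays.

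Cyp4b1, which activates some furan toxins, had a log2 difference of 0.20 ± 0.11 (SE, limma adjusted p = 0.274), with values of 4.11 to 4.78 in anti-GCGR livers and 3.99 to 4.48 in PBS livers. Its Cy3 signal was low, at 52 to 60 on anti-GCGR arrays and 55.5 to 60 on PBS arrays. With the scanner software's ratio the difference of Cyp4b1 was -0.03. Cyp4v3, whose human counterpart is mutated in a crystalline retinal disease, lay between 5.16 and 5.64 in anti-GCGR livers and between 5.15 and 5.58 in PBS livers, a log2 difference of -0.004 ± 0.09 (SE, limma adjusted p = 0.984). Cyp4f13 lay between 1.86 and 2.08 in anti-GCGR livers and between 1.97 and 2.16 in PBS livers, with 2 of 6 antibody arrays below all PBS arrays and a log2 difference of -0.10 ± 0.06 (SE, limma adjusted p = 0.257). With median centring in place of loess it was -0.24 (limma adjusted p = 0.0292), under which 13.4% of all genes were lower and the median of all genes was -0.06.

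Whether members of a subfamily changed unequally was tested on the difference of their log2 ratios within each array, for 13 pairs, by an exact permutation test that took all 462 ways to split the arrays (two-sided). None passed after Benjamini-Hochberg adjustment. The smallest raw p was for Cyp4a10 against Cyp4a14, whose difference was -1.40 ± 0.08 (SD, n = 6) in anti-GCGR livers and -1.19 ± 0.13 (SD, n = 5) in PBS livers (exact permutation p = 0.0195, adjusted p = 0.12). For Cyp4f14 against Cyp4f15 the change in the difference was -0.06 (exact permutation p = 0.305, adjusted p = 0.397).

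Cyp4f14, a leukotriene and vitamin E hydroxylase in mice, had lower signals in both dyes on most antibody arrays while its ratio did not differ beyond the spread. Its log2 ratio lay between 4.92 and 5.21 in anti-GCGR livers and between 4.78 and 5.21 in PBS livers, a log2 difference of 0.005 ± 0.08 (SE, limma adjusted p = 0.976). Its unlogged liver signal in Cy5 was 6775, 6734, 10638, 5227.5, 15349.5 and 7322 on anti-GCGR replicates 1 to 6, and 12485, 15337, 16760, 12078 and 16181 on PBS replicates 1, 3, 4, 5 and 6. Thus 5 of 6 antibody arrays were below all PBS arrays, with anti-GCGR replicate 5 inside the PBS range. The Cy3 signal of the same spots, from the reference RNA common to all arrays, was 226.5, 228, 326.5, 179.5, 532 and 233 on anti-GCGR replicates 1 to 6, and 376, 466, 409, 389 and 477 on PBS replicates 1, 3, 4, 5 and 6. The same 5 antibody arrays were below all PBS arrays in Cy3 too. On slides 1 and 3 both antibody arrays were below both PBS arrays in either dye, while on slide 2 anti-GCGR replicate 2 was below and replicate 5 above the PBS array.

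In Cy5 alone, quantile scaled between arrays, Cyp4f14 had a log2 difference of -0.83 (SE 0.22) and an adjusted p of 0.028 in limma, where 6.77% of all genes were lower at that threshold. The 95% interval was -1.30 to -0.35. In Cy3 alone, which was not scaled between arrays, the difference was -0.60 and not past the threshold (limma adjusted p = 0.144, unadjusted 95% interval -0.98 to -0.23). Leaving out each of the 11 arrays in turn kept the Cy5 difference between -1.02 and -0.72. But the call held in 3 of 11 fits, those without PBS replicate 5, anti-GCGR replicate 3 or anti-GCGR replicate 5. In these fits, in that order, 1087, 753 and 1813 of 15974 genes were lower. The smallest limma adjusted p was 0.000347 without anti-GCGR replicate 5, and the largest was 0.0687 without PBS replicate 3. With no scaling between arrays it was -0.83 (limma adjusted p = 0.0509). The scanner software's own ratio, which starts from its processed signals, gave 0.23 (limma adjusted p = 0.175).

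Cyp4f15 also had lower signals in both dyes on most antibody arrays. Its Cy5 signal lay between 4870 and 11660 in anti-GCGR livers (median 6681.75) and between 8722.5 and 12943 in PBS livers (median 10023), and 4 of 6 antibody arrays were below all PBS arrays. Its Cy3 signal lay between 207 and 479 on anti-GCGR arrays and between 359 and 491 on PBS arrays. The difference in log2 ratio was not past the threshold (0.06 ± 0.06, SE, limma adjusted p = 0.519). In Cy5 alone the difference was -0.61 (limma adjusted p = 0.0505, interval -1.02 to -0.19), and in Cy3 alone, not scaled between arrays, it was -0.44 (limma adjusted p = 0.176, unadjusted interval -0.77 to -0.11). Of the 11 fits of Cy5 alone that leave out an array, 1 called Cyp4f15, the fit without anti-GCGR replicate 5 (-0.75, limma adjusted p = 0.00276). In that fit 11.3% of all genes were lower. The largest limma adjusted p of Cyp4f15 over the 11 fits was 0.123, without PBS replicate 3.

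**Figure D2:**
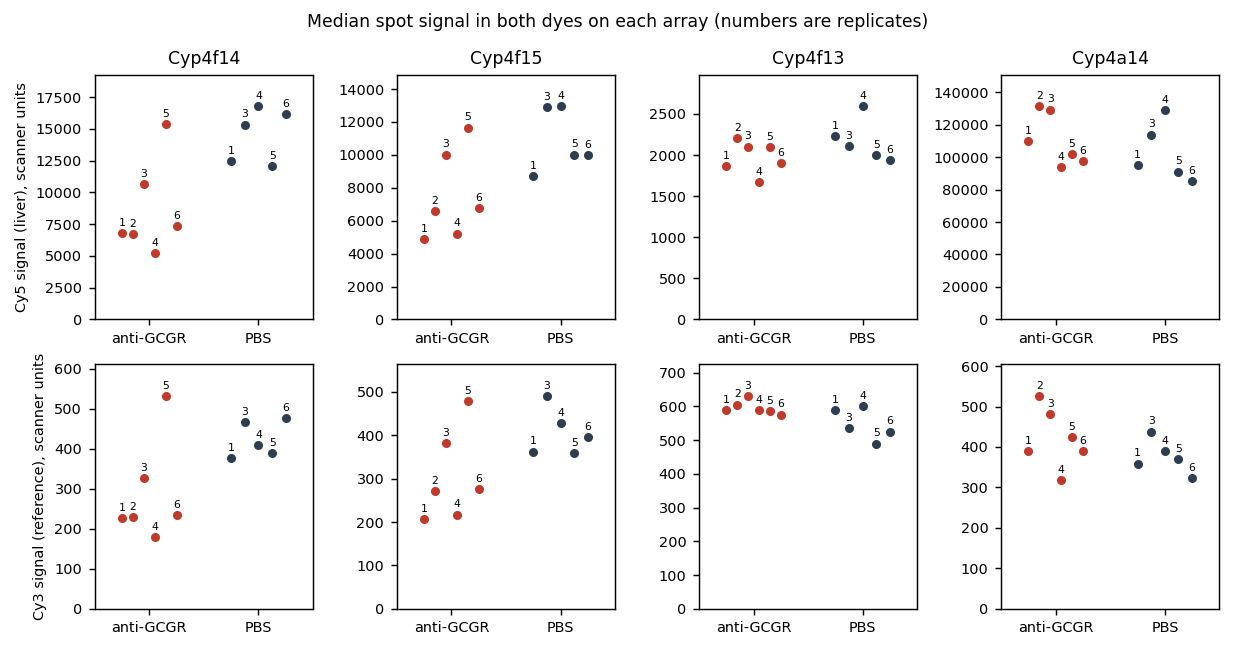
The upper panels give the unlogged median Cy5 spot signal (liver) and the lower panels the Cy3 signal (reference) in scanner units, for Cyp4f14, Cyp4f15, Cyp4f13 and Cyp4a14. Points are arrays, labelled by replicate, with anti-GCGR left of PBS, and each axis starts at 0. For Cyp4f14 all antibody arrays but replicate 5 lie below all PBS arrays in both dyes, while the Cyp4a14 points overlap.

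The other members had smaller Cy5 differences. In Cy5 alone they ran from -0.32 for Cyp4a10 (limma adjusted p = 0.137) to 0.24 for Cyp4a12a, and Cyp4a14 was at 0.20 (interval 0.00 to 0.39). Without anti-GCGR replicate 5, 5 members were lower in Cy5 alone, where 11.3% of all genes were: besides Cyp4f14 and Cyp4f15 these were Cyp4a10 (-0.41, limma adjusted p = 0.0313), Cyp4a31 (-0.38, limma adjusted p = 0.0387) and Cyp4v3 (-0.35, limma adjusted p = 0.0284). Without PBS replicate 5, Cyp4f13 was at -0.19 in Cy5 alone (limma adjusted p = 0.0423), beside Cyp4f14, where 1087 of 15974 genes were lower.

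**Figure D3:**
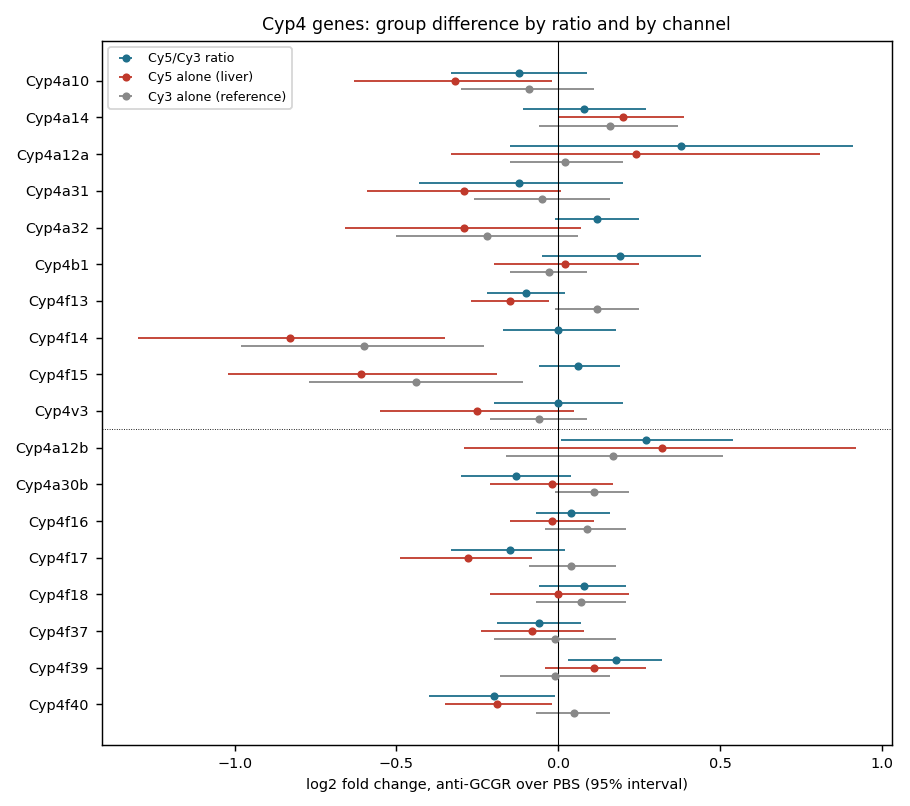
The horizontal axis is the log2 fold change, anti-GCGR over PBS, with its 95% interval, for the 10 members above the dotted line and 8 further Cyp4 genes below it. Colours separate the Cy5/Cy3 ratio, Cy5 alone and Cy3 alone. Cyp4f14 and Cyp4f15 lie near 0 in the ratio and below 0 in each dye.

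Cy3 signals moved with Cy5 signals in other bright liver genes too. Across the 609 genes with a mean log2 ratio of 4 or more, the Cy3 difference between the groups correlated with the Cy5 difference at Pearson r = 0.788, with a slope of 0.376. Across the 10107 genes with a mean log2 ratio between -1 and 1, r was 0.206 and the slope 0.096. Their Cy5 differences spread less, with an SD of 0.187 against 0.524 for the 609 genes. For mean log2 ratios from 1 to 2 and from 2 to 4, r was 0.4 and 0.523. These are correlations across genes that share the same arrays, given as a description. Of the 10 members, 8 had a mean log2 ratio of 4 or more, all but Cyp4a32 and Cyp4f13. The Cy3 sample was the same reference RNA on all arrays. The part of the Cy3 signal in the members' ratios, and so in the count of 0 members called, was not tested. Array position and group also cannot be told apart, because PBS samples lay at positions 1 and 2 and antibody samples at positions 3 and 4 of every slide.

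**Figure D4:**
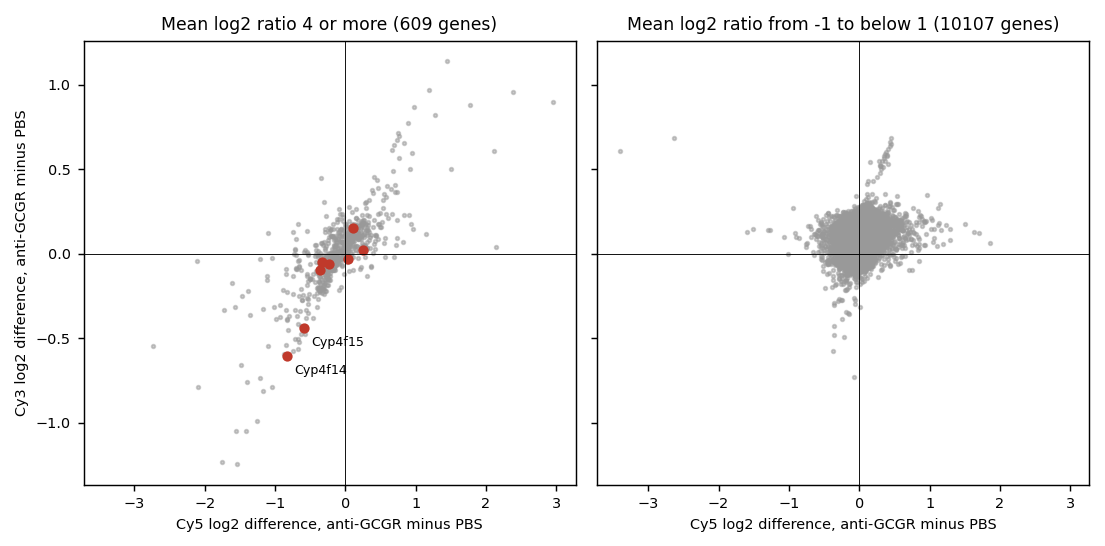
Each point is a gene, with the Cy5 log2 difference (anti-GCGR minus PBS) on the horizontal axis and the Cy3 log2 difference on the vertical axis. The left panel holds the 609 genes that are much brighter in liver than in the reference and the right panel the 10107 genes with a mean log2 ratio from -1 to below 1. Red points are Cyp4 members, and Cyp4f14 and Cyp4f15 lie at the lower left of the left panel.

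Of the 8 other Cyp4 genes tested, Cyp4a12b, Cyp4a30b, Cyp4f16, Cyp4f17, Cyp4f18, Cyp4f37, Cyp4f39 and Cyp4f40, 0 were called in either direction, where 14.6% of all genes were. The unadjusted 95% intervals of Cyp4a12b, Cyp4f39 and Cyp4f40 nevertheless left out 0. The log2 fold changes of the 8 ran from -0.20 for Cyp4f40 to 0.27 for Cyp4a12b. Cyp4a29 and Cyp4x1 were not well above background in Cy5 on any array. The pseudogenes Cyp4b1-ps2 and Cyp4f41-ps had log2 fold changes of 0.04 and -0.09, neither past the threshold.

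Genes that work beside the Cyp4 enzymes changed in part. Of 25 other PPAR-alpha targets, 9 rose and 0 fell, with a median log2 fold change of 0.19, where 8.98% of all genes rose and 5.66% fell. Plin2, a lipid droplet coat protein, rose by 0.77 ± 0.17 (SE, limma adjusted p = 0.0122), and Cpt1b, a carnitine palmitoyltransferase, by 0.72 ± 0.20 (SE, limma adjusted p = 0.0321), a call that 7 of 11 fits leaving out an array lost. With the scanner software's ratio 4 of the 25 rose, where 977 of 15974 genes rose and 13.5% were called in either direction. Without anti-GCGR replicate 5 it was 13, where 2294 of 15974 genes rose and 24.2% were called in either direction. Whether these targets and Cyp4a10 or Cyp4a14 changed unequally was not tested.

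Of 22 genes of peroxisomal oxidation, which shortens the dicarboxylic acids, 3 rose and 0 fell, where 8.98% of all genes rose and 5.66% fell. Acaa1b, a peroxisomal thiolase, was 5.12 ± 0.11 (SD, n = 6) in anti-GCGR livers and 4.67 ± 0.23 (SD, n = 5) in PBS livers, a rise of 0.45 ± 0.10 (SE, limma adjusted p = 0.0123), each antibody array being above every PBS array. Pex11a, which promotes peroxisome division, rose by 1.18 ± 0.33 (SE, limma adjusted p = 0.0313), but 9 of 11 fits that leave out an array lost the call. With the scanner software's ratio 1 of the 22 rose, where 977 of 15974 genes rose and 13.5% were called in either direction. Without anti-GCGR replicate 5 it was 7, with 1 fall, where 2294 of 15974 genes rose and 1574 fell. Of 12 genes that pass electrons to the P450s or oxidize the hydroxy acids, 1 rose, the cytochrome b5 reductase Cyb5r3 (0.61 ± 0.17, SE, limma adjusted p = 0.0314), and 7 of 11 such fits lost it.

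Among 18 regulators, 3 rose and 1 fell, where 8.98% of all genes rose and 5.66% fell. Ppargc1a, a glucagon-induced coactivator of oxidative genes, fell by 0.80 ± 0.11 in log2 units (SE, limma adjusted p = 0.00413), and all antibody arrays were below all PBS arrays. Ppara, the receptor PPAR-alpha itself, rose by 0.32 ± 0.09 (SE, limma adjusted p = 0.0302), and Pparg by 0.32 ± 0.09 (SE, limma adjusted p = 0.0407). These 2 calls were lost in 7 and 9 of 11 fits that leave out an array.

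Of 15 tested genes of arachidonate and leukotriene metabolism, whose products the Cyp4f enzymes take up, 3 rose and 0 fell. Among all genes 8.98% rose and 5.66% fell. Ptgr1, which inactivates leukotriene B4 and prostaglandins, rose by 0.90 ± 0.10 (SE, limma adjusted p = 0.00256), each antibody array being above every PBS array, and Ephx1, an epoxide hydrolase, by 0.32 ± 0.09 (SE, limma adjusted p = 0.0306), a call that 6 of 11 such fits lost.

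Because Cyp4a12a is male-predominant, genes of liver sex bias were set beside it. Of 10 tested male-predominant genes 3 rose, where 8.98% of all genes rose, and the median log2 fold change of the 10 was 0.08. The genes that rose included Mup20, a major urinary protein (0.94 ± 0.26, SE, limma adjusted p = 0.0303), which 8 of 11 such fits lost, and Gstp1, a glutathione transferase (0.60 ± 0.14, SE, limma adjusted p = 0.0179). Of 10 tested female-predominant genes 2 fell, where 5.66% of all genes fell, and the median log2 fold change of the 10 was -0.2. The 2 were Cyp3a44, by 1.24 ± 0.28 (SE, limma adjusted p = 0.0138), and the sulfotransferase Sult2a1, by 1.02 ± 0.26 (SE, limma adjusted p = 0.0232). Sult2a1 depended on the scale, at -0.04 with the scanner software's ratio and -2.05 in Cy5 alone, and 2 of 11 such fits lost it.

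**Figure D5:**
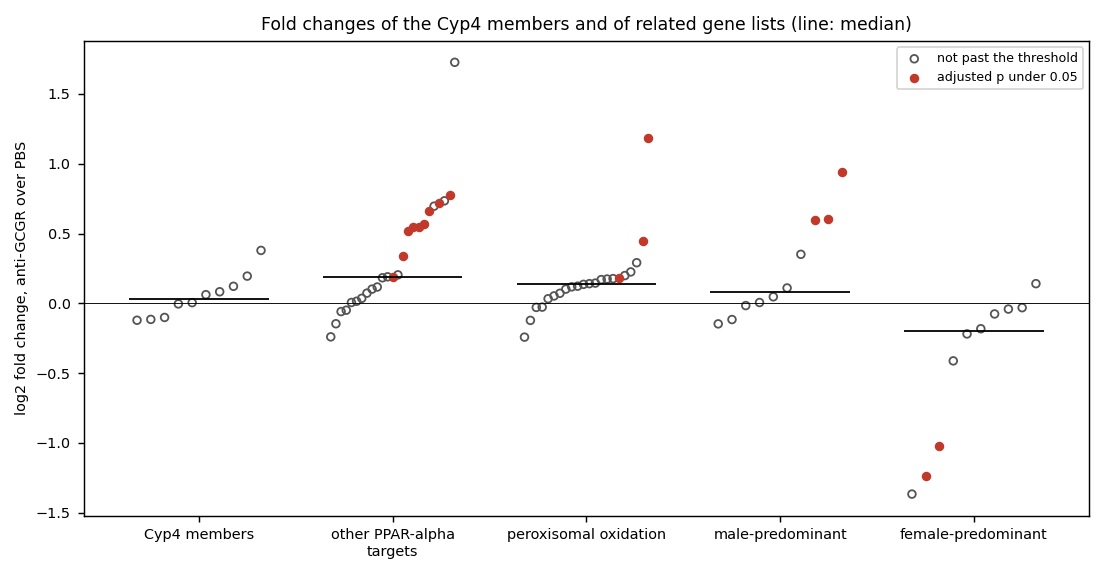
The vertical axis is the log2 fold change, anti-GCGR over PBS, with 1 point a gene for the 10 Cyp4 members and 4 related gene lists. Filled points passed an adjusted p of 0.05 (limma), and lines are medians. The 10 members lie between -0.12 and 0.38 with none filled, while 9 of 25 other PPAR-alpha targets are filled.

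Genes whose deviations from the group means were most like those of a member were given by Pearson r over the 11 arrays. They were Zfp119a (0.933), Zfp11 (0.927) and 4930567H12Rik (0.925) for Cyp4a10, Gm10319 (0.949), Tmed7 (0.935) and F9 (0.913) for Cyp4a14, and Arap2 (0.933), Vav2 (0.918) and Rdh9 (0.899) for Cyp4a12a. None of these 9 genes was called, where 14.6% of all genes were.

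Hepatocyte markers had a mean log2 ratio of 5.95 to 6.14 on anti-GCGR arrays and 5.97 to 6.18 on PBS arrays (0 of 10 rose and 1 fell, Serpina1c). Single markers went both ways, from -0.35 for Cps1 to 0.33 for Apoa1, neither past the threshold. Apoa1 differed by 1.45 in Cy5 and 1.14 in Cy3. These 3 markers are named after their values were seen. Markers of stellate cells and fibroblasts were higher, at -0.60 to 0.03 on anti-GCGR arrays and -0.91 to -0.60 on PBS arrays, with 5 of 10 called, and 3 of 9 endothelial markers rose. Of the other lists, 1 of 9 macrophage, 1 of 8 lymphocyte and 2 of 3 tested erythroid markers rose, 1 of 6 adipocyte markers fell, and none of the 7 cholangiocyte and 4 tested neutrophil markers was called. Among all genes 8.98% rose and 5.66% fell. In whole liver, fewer cells of a type and less RNA per cell cannot be told apart, and the part of these markers in the results above was not tested.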

How the data were processed

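Liver RNA of db/db mice was hybridised in Cy5 against a pooled reference in Cy3, per the labels. The deposited scanner files, from Agilent Feature Extraction 11 per the submitters' processing notes and 11.5.1.1 per the file headers, hold unlogged median intensity values of each spot and its background, processed intensities with background removed and dyes balanced by the software, and log10 of their ratio. The authors also deposited log2 ratios per probe, Cy5 over Cy3. The steps behind them are not given in the labels or headers. Their column medians ran from -0.00277 to 0.00809, and they correlated with the values computed here at 0.99996 or more. Quality marks were flags, per the file headers.

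With limma 3.58.1 in R 4.3.3, the median intensities were corrected by normexp (offset 50) and normalized by loess within each array, with control spots at weight 0. Uneven spots were left out, none was saturated, and spots of a probe were averaged. Probes were named by accession through a RefSeq table (26581 of 39429 probes, 20144 genes). Probes had to be well above background in Cy5 on 5 or more of the 11 arrays, and the brightest kept probe stood for its gene, which left 15974 genes. Groups were compared with lmFit and eBayes, two-sided, with Benjamini-Hochberg adjustment and a threshold of 0.05. The fit was tested on simulated data. The members, lists and rules were chosen with earlier results of these data known. Named genes were all Cyp4 genes and, of each function list, at most the 2 largest rises and 2 largest falls past the threshold. Median Cy5 signals were 85 to 110 per array against a background of 26 to 27, and the number of arrays limits the precision. Alternatives tried are given in the closing section. Replicate numbers were not used to pair the samples in the main comparison.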

Additional observations from a re-analysis of the deposited data

Results flagged for a closer look

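In groups of 4 to 10 samples, a sample was singled out when its gap to the nearest other sample was large against the range of its group by Dixon's 95% criterion. Of 64 combinations of gene and group, 3 were singled out, where chance gives about 1 in 20. Cyp4f39 was at a log2 ratio of 0.35 on anti-GCGR replicate 3, below the other antibody arrays. Pex11a was at 3.40 on anti-GCGR replicate 5, below the other antibody arrays. Cyp3a44 was at 2.52 on anti-GCGR replicate 5, above the other antibody arrays.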

How the results depend on the processing

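The members' fold changes were computed in 35 alternative fits with a test. Signs turned in some: with median centring Cyp4a14 was at -0.02, Cyp4a32 at -0.03, Cyp4f14 at -0.20 and Cyp4f15 at -0.13, and with the scanner software's ratio Cyp4b1 was at -0.03 and Cyp4a31 at 0.02. With Cy5 alone Cyp4a32 was at -0.29, Cyp4f14 at -0.83 and Cyp4f15 at -0.61, and with no scaling between arrays at -0.28, -0.83 and -0.59. The last setting, and leaving out arrays from Cy5 alone, were added after seeing the data. Leaving out each array in turn, Cyp4a32 lay between 0.09 and 0.15 as a ratio and between -0.42 and -0.20 in Cy5 alone, Cyp4b1 between 0.12 and 0.26 and between -0.04 and 0.08, Cyp4f14 between -0.06 and 0.04 and between -1.02 and -0.72, and Cyp4f15 between 0.03 and 0.08 and between -0.75 and -0.51. The count of lower members was 1 with median centring and 1 with Cy5 alone. When leaving out an array from the ratio it was 0, or 1 without PBS replicate 5. When leaving out an array from Cy5 alone it was 0 to 5, with 5 only without anti-GCGR replicate 5. Among all genes, 1434 were higher and 904 lower, against 581 and 2145 with median centring, 977 and 1185 with the scanner software's ratio, 1211 and 1081 with Cy5 alone, and 417 and 334 with Cy5 alone without quantile scaling. Leaving out an array, with or without Cy3, gave 550 to 2294 higher and 458 to 1813 lower genes. The cause of these moves was not tested.

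Deviations from the group means correlated at -0.125 to 0.141 between samples with the same replicate number, and at -0.175 to 0.224 between other samples. Samples with the same number also shared a slide, so these correlations cannot show whether the numbers pair the samples. With the replicate block, 711 genes were higher and 335 lower, and no member was called. Within slides 1, 2 and 3, the 10 members moved by more than their replicate spread in 9 cases, which have no test. The only PBS array on slide 2 was replicate 5, the lowest PBS array in 8 of the 10 members.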
